A study of Mus musculus with 9 samples.

Results

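The Ifit genes measured here were Ifit1, Ifit2, Ifit3 and Ifit3b, 4 of the 54532 genes in the count tables, taken by name with earlier results of these data known. Kidney RNA was sequenced from 3 groups of C57BL/6J mice with 3 libraries each. The groups were wild-type (WT) mice and Trex1-/- mice that received either PBS or SN-011, an antagonist of STING. By the study's methods, Trex1-/- mice came from matings of Trex1+/- mice and were about 1 month old when daily intraperitoneal injections of SN-011 or its vehicle, a solution of Tween 80 in PBS, began and ran for 2 weeks. WT mice were purchased at some weeks of age, given in the methods as a range, and so were not littermates. What they were given, if anything, and their age when tissue was taken are not stated in the sources used here, nor is the sex of any of the mice. The Trex1 deletion was therefore shared by the PBS and SN-011 groups, and a difference between Trex1-/- PBS and WT also holds any difference of breeding source and injection.

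TREX1 is an exonuclease that removes DNA from the cytosol. Without it, DNA activates the sensor cGAS, whose product cGAMP activates STING and leads to type I interferon, and interferon bound to its receptor drives transcription factors onto interferon-stimulated response elements in the promoters of target genes. Ifit genes (interferon-induced proteins with tetratricopeptide repeats) are among the best known of these targets, are low in many resting tissues, and encode cytosolic RNA-binding proteins. Ifit1 holds back translation of capped RNA that lacks ribose methylation next to the cap, Ifit2 binds RNA and has been tied to apoptosis and antiviral defense, and IFIT3 in human cells binds IFIT1 and stabilizes it. Ifit3b is a mouse copy of Ifit3.

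The 4 genes lie in 99.3 kb of chromosome 19 (GRCm38, 34550694 to 34650009) and are all transcribed from the plus strand. In order along the chromosome, Ifit2 (ENSMUSG00000045932) spans 34550694 to 34576419, Ifit3 (ENSMUSG00000074896) 34583531 to 34588731, Ifit3b (ENSMUSG00000062488) 34607970 to 34613401, and Ifit1 (ENSMUSG00000034459) 34640871 to 34650009. A further pair of Ifit genes on the minus strand, Ifit1bl1 and Ifit1bl2, sits among them. The coding sequences of Ifit3 and Ifit3b were 99.1% identical, with 11 differing positions in 1212 bases, whereas Ifit1 and Ifit2 were 60.8% identical. Ifit1bl1 and Ifit1bl2 were closest in coding sequence to Ifit1 among the 4 genes, at 76.0% and 75.5%. Of all stretches of 150 bases, the read length, 296 were common to Ifit3 and Ifit3b, which is 18.5% of those of Ifit3, compared with 31 of Ifit1 (1.24%), common with Ifit1bl2, and 0 of Ifit2. The exons of the 4 genes overlapped no other annotated gene.

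Promoter sequence is shown to set the 4 genes beside an Ifit gene that did not pass the test in these kidneys. Upstream stretches outside annotated exons were taken from RefSeq promoter windows (GRCm38.p6, each 300 bases around a start site) at chr19:34640744-34640870 for Ifit1, chr19:34550444-34550693 for Ifit2, chr19:34583279-34583528 for Ifit3, chr19:34607707-34607956 for Ifit3b, all on the plus strand, and chr19:34601969-34602218 on the minus strand for Ifit1bl1. They are written 5′ to 3′ along the strand of the gene, and capitals mark the core of the interferon-stimulated response element, GAAANNGAAA, which was searched on both strands and reads TTTCNNTTTC on the other one.
Ifit1: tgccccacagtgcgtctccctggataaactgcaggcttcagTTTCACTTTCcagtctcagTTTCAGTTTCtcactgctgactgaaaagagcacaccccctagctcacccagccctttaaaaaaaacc
Ifit2: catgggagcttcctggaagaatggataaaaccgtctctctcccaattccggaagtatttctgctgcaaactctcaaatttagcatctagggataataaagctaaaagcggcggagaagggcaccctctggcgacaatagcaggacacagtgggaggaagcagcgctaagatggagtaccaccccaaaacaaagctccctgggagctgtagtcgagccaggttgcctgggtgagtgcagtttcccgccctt
Ifit3: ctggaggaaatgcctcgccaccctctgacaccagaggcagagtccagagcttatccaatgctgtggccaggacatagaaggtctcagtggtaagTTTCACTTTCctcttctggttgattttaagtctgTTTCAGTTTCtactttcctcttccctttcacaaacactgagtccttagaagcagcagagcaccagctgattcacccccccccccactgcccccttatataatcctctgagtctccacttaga
Ifit3b: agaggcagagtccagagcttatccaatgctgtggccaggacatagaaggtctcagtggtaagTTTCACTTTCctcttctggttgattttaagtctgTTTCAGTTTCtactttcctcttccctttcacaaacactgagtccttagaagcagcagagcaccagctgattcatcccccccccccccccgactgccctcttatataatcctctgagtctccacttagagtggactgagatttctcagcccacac
Ifit1bl1: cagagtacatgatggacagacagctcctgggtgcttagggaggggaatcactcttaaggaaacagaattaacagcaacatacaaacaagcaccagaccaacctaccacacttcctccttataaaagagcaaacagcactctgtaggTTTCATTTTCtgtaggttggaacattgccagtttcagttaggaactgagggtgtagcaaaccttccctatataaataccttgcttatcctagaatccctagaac

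The motif was present in 2 places before the start site in each of Ifit1, Ifit3 and Ifit3b. It ended 95 and 76 bases before the start in Ifit1, 147 and 113 in Ifit3, and 179 and 145 in Ifit3b. Ifit3 and Ifit3b shared an unbroken run of 169 identical bases that holds both places. Of all 32851 RefSeq windows, 3.44% held the motif and 0.122% held it in 2 places. The letters were not in either window of Ifit2. They were in 1 place in each window of Ifit1bl1, and the pair of places of Ifit1 also lay before a start of Ifit1bl2, which points away from Ifit1 on the other strand, 42 and 61 bases from that start. All these distances are from the RefSeq starts of the windows. These matches describe the letters in the windows and were not tested for binding.

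**Figure D1:**
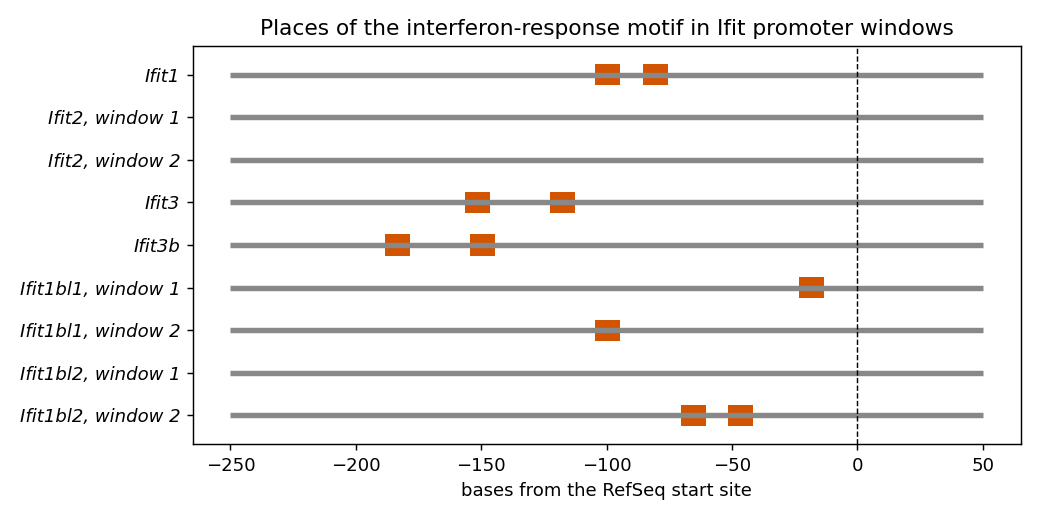
Places of the motif (orange) in RefSeq promoter windows (grey) of Ifit genes, by distance in bases from the annotated start site (dashed line, upstream to the left). Ifit1, Ifit3 and Ifit3b have 2 places each, Ifit2 has 0 in both of its windows, and Ifit1bl1 has 1 in each.

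The libraries held 16118813 to 21928965 counts. Levels are given as CPM, counts scaled to a common library size with TMM factors, and where genes are compared with each other as RPKM, which is CPM per kilobase of exon. Trex1 had 0 counts in every library, WT included. All 1147 of its exon bases also belong to Atrip on the same strand, so the genotypes rest on the labels. The proximal tubule markers Lrp2, Slc34a1, Slc5a2 and Slc22a6 were all present, summing to 6564 to 8533 CPM. Reads of Y-linked genes were found in WT replicate 3, all 3 PBS libraries and SN-011 replicate 2 (153 to 188 CPM) and were nearly missing in the other 4 (0 to 0.377 CPM), so the sexes were unequal between groups. SN-011 replicate 2 stood apart from its group, with a variance against the other SN-011 libraries of 66.8 and 76.0 times that of counting, compared with 7.76 to 31.7 times for all other pairs within a group. Nothing in the labels says how the replicates of a group were drawn, and p-values measure the spread between these libraries. In bulk kidney RNA, a change in the number of cells that express a gene and a change in RNA per cell cannot be told apart.

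Comparison of Trex1-/- PBS kidneys with WT asked how far the Ifit genes rise when TREX1 is missing. All 4 rose, from 3.72-fold for Ifit2 to 8.73-fold for Ifit1, at adjusted p of 1.04e-04 to 4.06e-04 by edgeR's quasi-likelihood test with Benjamini-Hochberg adjustment over 16646 genes. In this comparison 1.88% of those genes were called (1.44% higher), and the median log2 fold change over all of them was 0.0028 against a median of 2.34 over the 4. For each of the 4, every PBS library was above every WT library, which 13.1% of all genes tested also showed in that direction.

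Ifit1, the sensor of foreign caps, was at 11.8, 9.39 and 12.4 CPM in WT replicates 1, 2 and 3. It was at 82.5, 118 and 92.6 CPM in those given PBS. The lowest PBS library was far above the highest WT library. The means were 11.2 ± 1.58 CPM (SD, n = 3) and 97.6 ± 18.2 CPM, a log2 fold change of 3.13 with a standard error of 0.220 and a 95% interval of 2.64 to 3.62. By p it was the 7th gene of all tested in this comparison.

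Ifit2, the RNA-binding member tied to apoptosis, was at 18.6, 18.1 and 21.2 CPM in WT. In PBS libraries it was at 68.0, 87.5 and 60.2 CPM. The groups were well apart, and WT libraries were close to each other. Its log2 fold change, 1.90 ± 0.179 (SE, 95% interval 1.50 to 2.30), was the smallest of the 4, and its interval did not reach that of Ifit1.

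Ifit3, the partner of IFIT1 in human cells, was at 26.4, 35.1 and 33.6 CPM in WT and at 134, 196 and 157 CPM with PBS. No library of a group came near the other group. The means were 31.7 ± 4.69 and 162 ± 31.8 CPM, 5.12-fold apart (log2 fold change 2.36 ± 0.180, SE).

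Its copy Ifit3b was at 6.84, 8.63 and 11.4 CPM in WT and at 38.2, 54.9 and 41.5 CPM with PBS. The groups were again apart. Its means of 8.95 ± 2.30 and 44.8 ± 8.85 CPM were 5.01-fold apart (log2 fold change 2.33 ± 0.224, SE), close to the ratio of Ifit3. With the counts of both copies summed before the fit, the log2 fold change was 2.35 (edgeR quasi-likelihood adjusted p = 1.85e-04).

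**Figure D2:**
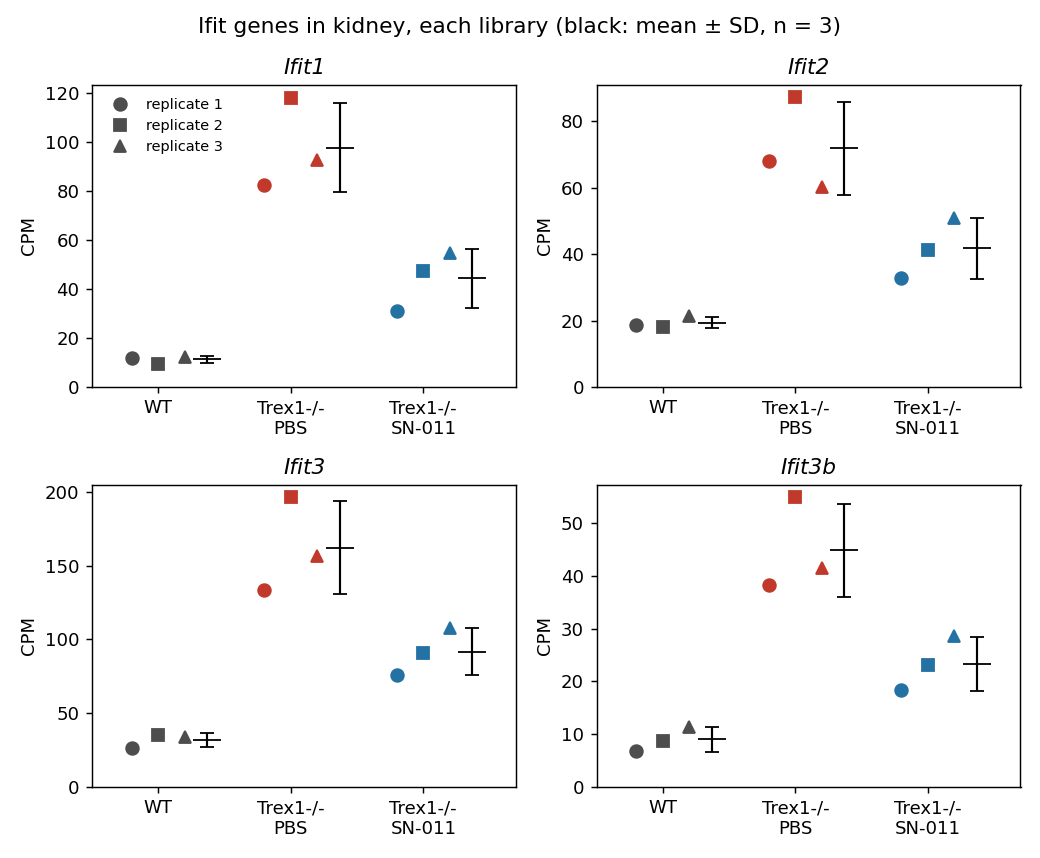
CPM of Ifit1, Ifit2, Ifit3 and Ifit3b in each of the 9 libraries (colored symbols, the shape gives the replicate number), with the mean ± SD of each group of 3 in black; each panel has its own linear axis from 0. In every panel the 3 WT libraries are lowest, the 3 PBS libraries highest and the 3 SN-011 libraries between them, with PBS replicate 2 and SN-011 replicate 3 the highest of their groups.

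The remaining Ifit genes of the cluster did not pass the test. Ifit1bl1 was at 1.89, 3.88 and 2.95 CPM in WT and at 3.35, 3.39 and 2.98 CPM with PBS, and Ifit1bl2 was at 2.69, 3.97 and 2.08 and at 2.56, 2.51 and 2.11 CPM. WT and PBS libraries overlapped for both. Their log2 fold changes were 0.16 (95% interval -0.52 to 0.83) and -0.29 (-1.14 to 0.56), with edgeR quasi-likelihood adjusted p of 0.848 and 0.769, and the intervals lay below those of all 4 Ifit genes that rose. At 1.89 to 3.97 CPM in these groups, they were measured on few reads, at most 88 in a library. Within 500 kb of the cluster on either side, 10 of 22 other genes, these 2 included, had enough reads to be tested and 0 were called in any of the 3 comparisons. The 4 with the smallest p, Acta2 (0.54), Ch25h (0.86), Lipa (-0.27) and Kif20b (1.96, standard error 0.869), had adjusted p of 0.132 to 0.323 in PBS against WT.

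Comparison of SN-011 with PBS in Trex1-/- mice asked whether blocking STING lowers these genes. All 4 means were lower with SN-011, at 45.5% of the PBS mean for Ifit1, 58.0% for Ifit2, 56.4% for Ifit3 and 51.9% for Ifit3b. Each SN-011 library was below each PBS library for every one of the 4, as were those of 8.41% of all genes tested. None of the 4 passed the adjusted threshold, and neither did any other gene (0% called), although all 4 had an unadjusted p under 0.05, as did 5.68% of all genes in the lower direction. The 4 were called by the DESeq2 Wald test and edgeR's exact test, which called 183 and 127 of all genes, and 0 of them by limma-voom, which called 0. Without SN-011 replicate 2, Ifit1 was called (-1.19, edgeR quasi-likelihood adjusted p = 0.0269), and Ifit2, Ifit3 and Ifit3b were at -0.79, -0.83 and -0.95 with adjusted p of 0.0595, 0.0516 and 0.0616, in a fit that called 519 of 17014 genes.

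With SN-011, replicates 1, 2 and 3 were at 31.2, 47.5 and 54.6 CPM for Ifit1. The highest of them stayed well under the lowest PBS library, at 82.5 CPM. Its log2 fold change was -1.14 ± 0.202 (SE), with a 95% interval of -1.59 to -0.69 and an edgeR quasi-likelihood adjusted p of 0.168.

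For Ifit2, the same libraries were at 32.8, 41.4 and 51.0 CPM. The gap to PBS was narrow, since PBS replicate 3 was at 60.2 CPM. The log2 fold change was -0.79 ± 0.173 (SE, 95% interval -1.17 to -0.40), with an adjusted p of 0.210 by edgeR's quasi-likelihood test.

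Ifit3 was at 75.7, 91.0 and 108 CPM and Ifit3b at 18.2, 23.1 and 28.5 CPM. For both copies replicate 1 was lowest and replicate 3 highest, as for Ifit1 and Ifit2, and no library reached the PBS range. Their log2 fold changes were -0.83 (95% interval -1.21 to -0.44) and -0.95 (-1.42 to -0.48), at an edgeR quasi-likelihood adjusted p of 0.210 for each, and -0.85 with their counts summed. All 4 intervals left out 0, while the adjusted p did not pass. Ifit1bl1, at 1.47, 1.68 and 2.73 CPM, was also below PBS in every library (-0.72, -1.43 to -0.02, adjusted p 0.425), and Ifit1bl2, at 4.08, 1.28 and 2.55 CPM, overlapped PBS.

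SN-011 kidneys, compared with WT, showed what level was left. All 4 genes were called higher, against 1.28% of all genes tested (0.823% higher), and no SN-011 library overlapped WT for any of them, which held for 11.8% of all genes in that direction. Ifit1 was 3.97-fold higher (log2 fold change 1.99 ± 0.214, SE), Ifit3 2.89-fold (1.53 ± 0.176), Ifit3b 2.60-fold (1.38 ± 0.222) and Ifit2 2.16-fold (1.11 ± 0.177). The edgeR quasi-likelihood adjusted p was 0.00352 for Ifit1, 0.00424 for Ifit3, 0.0185 for Ifit2 and 0.0189 for Ifit3b. The calls of Ifit2 and Ifit3b were lost when the fit held only the 6 libraries of this comparison, and without WT replicate 1 or without WT replicate 2, leaving 2 of 4 called each time. In those 3 fits the log2 fold changes were 1.11, 1.09 and 1.07 for Ifit2 and 1.38, 1.22 and 1.36 for Ifit3b, and the number of all genes called went from 213 to 43, 38 and 48. All 4 calls were kept without SN-011 replicate 2. Since the comparisons share PBS or WT libraries, their changes are not independent of each other.

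**Figure D3:**
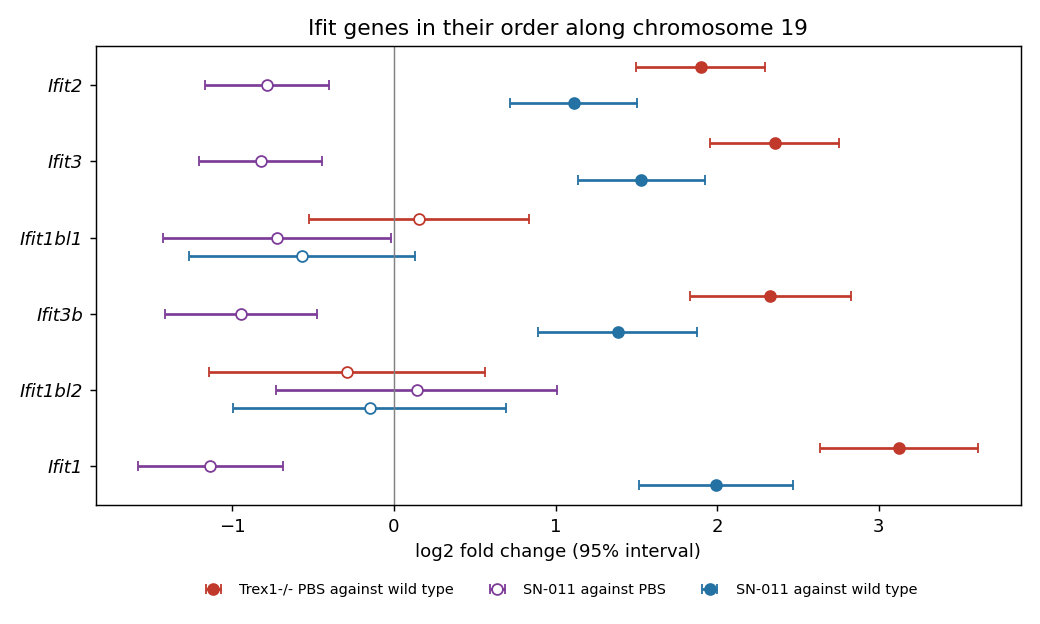
Log2 fold changes of 6 Ifit genes in the 3 comparisons, with 95% intervals; filled points passed an adjusted p of 0.05 in edgeR's quasi-likelihood test and open points did not. Ifit1, Ifit2, Ifit3 and Ifit3b are right of 0 in both comparisons with WT and left of 0 in SN-011 against PBS, while all intervals of Ifit1bl2 span 0.

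The 3 groups held the 4 genes at different levels per length. In WT, Ifit3 was the highest, at a mean of 18.2 ± 2.69 RPKM, and Ifit2, Ifit3b and Ifit1 had 4.92, 4.48 and 4.21 RPKM. Ifit2 was above Ifit1 in each WT library, while Ifit3b was the lowest, between them or the highest of these 3. With PBS the order was Ifit3 at 93.0, Ifit1 at 36.8, Ifit3b at 22.4 and Ifit2 at 18.3 RPKM. SN-011 libraries had the same order, at 52.5, 16.7, 11.6 and 10.6 RPKM. Within each of the 6 Trex1-/- libraries the genes were in this order, although the ranges of Ifit3b and Ifit2 over libraries overlapped in both groups, as did those of Ifit1 and Ifit3b with SN-011. The order of Ifit3b and Ifit2 depends on the exon lengths used, 2000 and 3927 bases. In CPM, Ifit2 had the higher mean, at 71.9 against 44.8 with PBS and 41.7 against 23.3 with SN-011. Ifit1bl1 and Ifit1bl2 stayed at 0.711 to 1.43 RPKM in every group mean. Ifit1 had the lowest mean of the 4 in WT and the second highest in both Trex1-/- groups.

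Summed over the 4 genes, the libraries held 63.6, 71.3 and 78.6 CPM in WT, 322, 457 and 351 CPM in the PBS group, and 158, 203 and 242 CPM in the SN-011 group. Of this sum, Ifit1 made up 13.2 to 18.5% in WT, 25.6 to 26.4% with PBS and 19.7 to 23.4% with SN-011, with no overlap between groups. Ifit2 went the other way, from 25.4 to 29.2% in WT to 17.1 to 21.1% with PBS and 20.4 to 21.1% with SN-011, where the Trex1-/- groups overlapped. Ifit3, at 41.5 to 49.3%, overlapped between all groups. Ifit3b was at 10.8 to 14.5% in WT, which held the range of both other groups, at 11.8 to 12.0% with PBS and at 11.4 to 11.8% with SN-011, where the highest library was just below the lowest PBS library.

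Ratios of genes within a library do not depend on library size. The log2 ratio of Ifit1 to Ifit2 was -0.79 ± 0.145 (SD, n = 3) in WT, 0.44 ± 0.172 with PBS and 0.07 ± 0.136 with SN-011, and no 2 groups overlapped. The log2 ratio of Ifit3 to Ifit3b was 1.83 ± 0.246, 1.85 ± 0.0568 and 1.98 ± 0.0649. PBS and WT overlapped in that ratio, while SN-011 was above PBS in every library by 0.13 in the mean. Exact two-sided permutation tests over the 6 pairs of genes and 3 comparisons gave p = 0.1 at the least, the smallest that 3 against 3 libraries allow, or 0.138 adjusted over the 18 tests, so none could pass. Of the 6 pairs, 5 did not overlap in PBS against WT, 5 in SN-011 against PBS and 3 in SN-011 against WT. The 6 pairs share 4 genes and are not separate observations, and how often ratios or shares of other genes keep the groups apart was not counted.

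**Figure D4:**
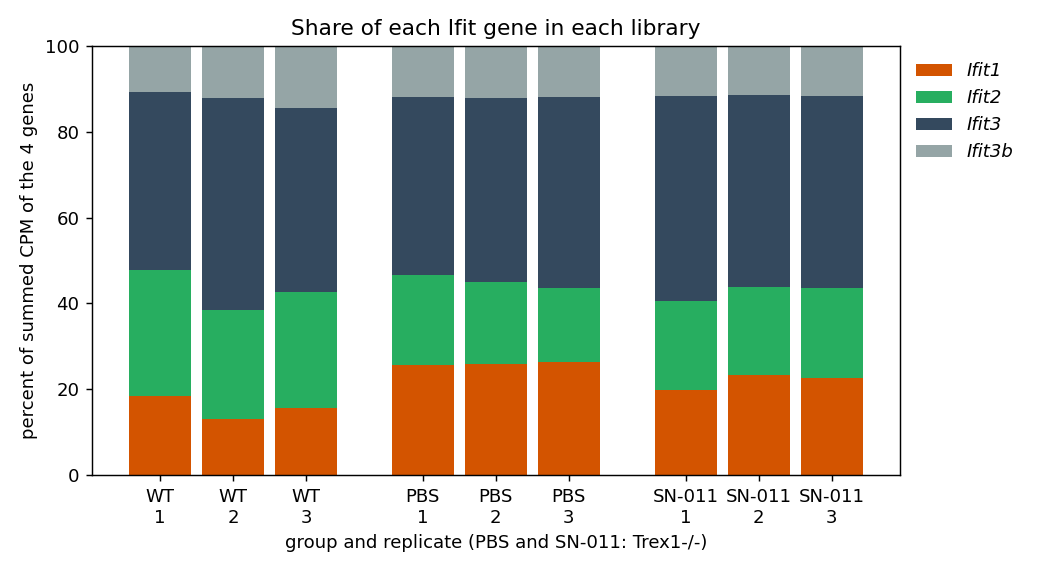
Percent of the summed CPM of Ifit1, Ifit2, Ifit3 and Ifit3b contributed by each gene, in each of the 9 libraries. Ifit1 (bottom) takes 13.2 to 18.5% in WT, 25.6 to 26.4% with PBS and 19.7 to 23.4% with SN-011, and Ifit2 above it is widest in WT.

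The 4 genes mostly put the libraries of a Trex1-/- group in the same order. PBS replicate 2 was the highest PBS library and SN-011 replicate 3 the highest SN-011 library for all 4, and SN-011 replicate 1 was the lowest for all 4. Around their own means over the 9 libraries, the log2 profiles of Ifit3 and Ifit3b differed by a root mean square distance of 0.14, Ifit2 and Ifit3b by 0.24, and Ifit1 and Ifit2, the most unlike, by 0.53. Across 14838 other genes with a mean of at least 1 CPM, the median distance from the mean profile of the 4 was 1.03.

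The genes nearest to that mean profile over the 9 libraries were Oasl2, at a distance of 0.11, then Ddx60 (0.13), Gm12250 (0.15), Slfn8 (0.15), Rtp4 (0.15), Dhx58 (0.17), Trim30a (0.18), Usp18 (0.19), Bst2 (0.19) and Ifi47 (0.20). Oasl2, an OAS-like interferon-induced protein, was at means of 19.7, 122 and 63.8 CPM in WT, PBS and SN-011. Dhx58 encodes LGP2, a relative of the RNA sensors RIG-I and MDA5, and Bst2 encodes tetherin, which holds budding viruses at the cell surface. The nearest single gene was Oas1a for Ifit1 (0.17), Dtx3l for Ifit2 (0.13), and Rtp4 for Ifit3 (0.15) and Ifit3b (0.18). Of the 10, 7 had RefSeq promoter windows, and the motif GAAANNGAAA was in those of 5, Ddx60, Gm12250, Slfn8, Trim30a and Bst2, compared with 3.99% of all genes with a window. The windows of Oasl2, the nearest gene, and of Ifi47 held it in 0 places, and Rtp4, Dhx58 and Usp18 had no window.

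**Figure D5:**
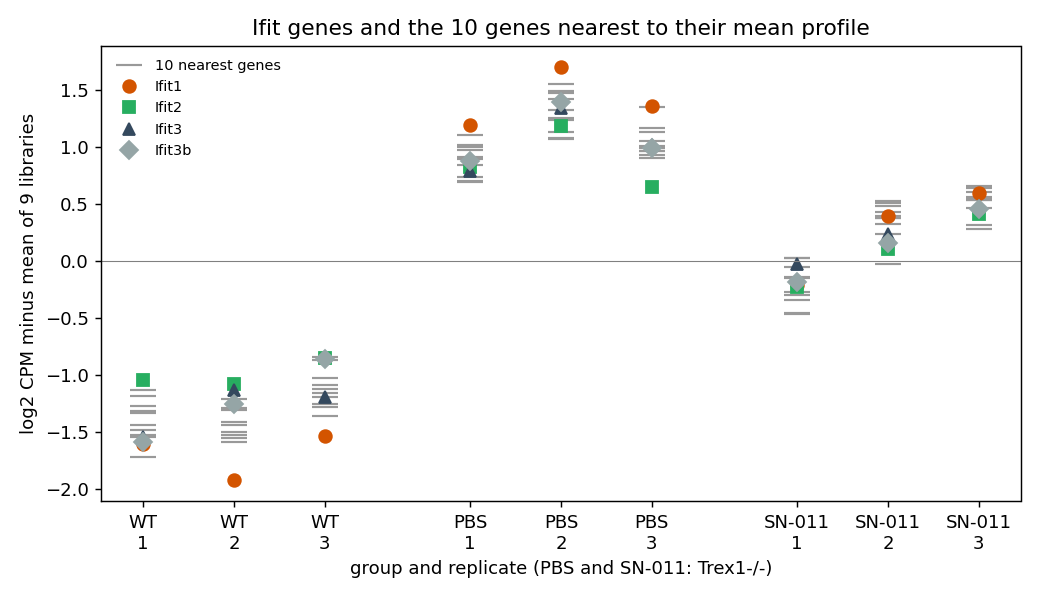
Log2 CPM of Ifit1, Ifit2, Ifit3 and Ifit3b (colored symbols) and of the 10 genes nearest to their mean profile (grey dashes) in each of the 9 libraries, minus the mean over the libraries of each gene. The 10 genes were chosen for this likeness; Ifit1 has the widest range of the 4 and Ifit2 the narrowest.

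Genes upstream and downstream of the Ifit genes in the pathway were looked at as groups. Of 21 interferon ligand genes, 17 had no counted read in any library, among them Ifnb1 and all Ifna genes listed, and the 21 summed to at most 0.522 CPM in a library. A count of 0 allows up to 3 counts, or 0.137 to 0.186 CPM depending on the library (counting error only), so no uniquely placed read pair of these 17 genes was detectable at this depth in any group. Pairs that fit several of these similar genes were not counted, and how much of each gene can be placed uniquely was not tested, so the limit is on counted pairs and not on expression. None of the 21 could be tested.

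Of the 9 genes of the nucleic-acid sensing relay, 3 rose in PBS against WT, 6 did not pass, and the median was 0.24. Irf7, which amplifies interferon induction, rose by 3.08 on the log2 scale, close to Ifit1, and the RNA sensors Ifih1 (MDA5) and Ddx58 (RIG-I) by 1.63 and 1.24. Cgas, the DNA sensor, was at 1.14 with an edgeR quasi-likelihood adjusted p of 0.214. In SN-011 against PBS 0 of the 9 were called, Irf7 being at -1.24 with an adjusted p of 0.203, and in SN-011 against WT Irf7, Ifih1 and Ddx58 were called.

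Among 6 genes that restrain interferon signaling, Usp18, which blocks the receptor, rose by 2.78 (adjusted p 7.59e-05, edgeR quasi-likelihood), and 5 did not pass, Socs1 being at 1.30 with an adjusted p of 0.0782. Usp18 was also called in SN-011 against WT (1.95), and was at -0.83 in SN-011 against PBS.

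Enzymes that build the mRNA cap, which IFIT1 reads, and an IFIT-binding translation factor were also measured. None of 6 mRNA cap enzymes was called in PBS against WT, by edgeR's quasi-likelihood test, with a median of 0.09. Rnmt, the cap methyltransferase, was at 0.24 (adjusted p 0.257), and Rngtt, Ramac and Cmtr2 at 0.08, 0.10 and -0.14. Of 14 genes for subunits of eIF3, the translation initiation factor that IFIT proteins can bind, 0 were called, with log2 fold changes of -0.24 to 0.50. Both groups also had 0 called in the other 2 comparisons.

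Some markers of leukocytes also differed between the groups. All 16 of the 23 markers that could be tested were above 0 in PBS against WT, with a median of 0.94, and 5 passed, Coro1a (0.94), C1qa (0.94), C1qb (0.79), Cd4 (1.61) and Jchain (1.99). All 23 had reads. For replicates 1, 2 and 3 their summed level was 184, 190 and 217 CPM in WT, 314, 312 and 347 CPM in the PBS group, and 189, 306 and 264 CPM in the SN-011 group. Its group means of 197, 324 and 253 CPM in WT, PBS and SN-011 had the same order as those of the sum of the 4 Ifit genes. Over libraries, both sums had the same order in WT and different orders within each Trex1-/- group, with SN-011 replicate 1 lowest of its group for both. The part of these cells in the Ifit result was not tested. In SN-011 against PBS 0 of 16 markers passed and 13 were below 0, and in SN-011 against WT 1 passed, Jchain (2.24). None of 3 endothelial, 8 other nephron or 2 tested adipocyte markers passed in any comparison, and of 4 proximal tubule markers Slc5a2 fell in PBS against WT, by 0.71 on the log2 scale (adjusted p 0.0163 by edgeR's quasi-likelihood test).

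Among the libraries with Y-linked reads alone, Ifit1 was at 12.4 CPM in WT, 82.5 to 118 CPM in the PBS group and 47.5 CPM after SN-011, and Ifit3 at 33.6, 134 to 196 and 91.0 CPM. The order of the groups was that of the full set for both, but WT and SN-011 had 1 library each here. That of SN-011 was replicate 2, which stood apart from its group. With a term for these reads in the fit, the 4 genes stayed called in PBS against WT and in SN-011 against WT, and 0 were called in SN-011 against PBS. In that last comparison, log2 fold changes with the term were -1.02, -0.72, -0.79 and -0.77 for Ifit1, Ifit2, Ifit3 and Ifit3b. Without the term they were -1.14, -0.79, -0.83 and -0.95. Without Y-linked reads, only WT and SN-011 had libraries, with Ifit1 at 9.39 to 11.8 and 31.2 to 54.6 CPM.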

How the data were processed

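Kidney polyA+ RNA of 9 mouse libraries was sequenced as paired reads of 150 bases. The authors trimmed reads with Trimmomatic, aligned them with HISAT2 at default parameters and counted uniquely mapped read pairs per gene with featureCounts. The submitters' processing notes name the build mm10; versions, annotation and strand setting are not given in the sources used here. The deposited values are raw counts, not normalized, with 1 table per library. Read pairs that could not be placed uniquely, which may include pairs in stretches common to Ifit3 and Ifit3b, were not counted, and their number is not known here.

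Of 54532 Ensembl identifiers, 54495 matched GENCODE vM21 (GRCm38), which gave symbols, positions and exon lengths. Counts were fitted with edgeR 4.0.16 (R 4.3.3). The filter was filterByExpr (10 counts, 15 in total), which kept 16646 genes, libraries were scaled by TMM, and all 9 were fitted together with a mean per group. Genes were called at a Benjamini-Hochberg adjusted p under 0.05 in the quasi-likelihood test. Standard errors and 95% intervals came from the F statistic. CPM use TMM-scaled sizes, RPKM divide CPM by the union of exons, and ratios within a library added 0.1 CPM. Sums of Y-linked reads and the limit for a count of 0 used total counts without TMM factors. Likeness of profiles was the root mean square distance of centered log2 CPM. The fit was tested on simulated counts. Depth limits precision through counting error, from 145 counts (Ifit3b, WT) to 3364 (Ifit3, PBS) per library.

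The genes named were the 4 members, Ifit1bl1, Ifit1bl2, neighbors within 500 kb (4 by smallest p), up to 4 per list by smallest p in PBS against WT, and the 10 nearest profiles. C1qb was named outside that rule, after its value was seen. Members and lists were chosen with earlier results of these data known. Results for the list of receptor signaling genes are not reported here. Alternatives were DESeq2 1.42.0 size factors, upper-quartile factors, 2 other filters, edgeR's exact test, limma-voom (limma 3.58.1), the DESeq2 Wald test, a fit of 6 libraries, a replicate block, a Y-linked term (Ddx3y, Kdm5d, Eif2s3y and Uty above 10 CPM), each library left out, and Ifit3 and Ifit3b summed.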

Additional observations from a re-analysis of the deposited data

How the results depend on the processing

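The 4 Ifit genes were called in Trex1-/- PBS against WT under all 19 alternatives, and all 228 fitted values kept their direction, 6 losing and 13 gaining a call. In SN-011 against PBS, 0 were called in the analysis as reported, 4 with no filter beyond 1 read, 4 by the DESeq2 Wald test and 4 by edgeR's exact test, and leaving out 1 library gave 0 to 1 (Ifit1, without SN-011 replicate 2). In SN-011 against WT, 4 were called, 2 (Ifit1 and Ifit3) in the fit of only 6 libraries, and 2 to 4 with 1 library left out. Adjusted p ranged over alternatives from 8.81e-05 to 0.650 for Ifit1 and from 0.00684 to 0.650 for Ifit2 in SN-011 against PBS. Log2 fold changes with 1 library left out ran from 2.96 to 3.23 for Ifit1 in PBS against WT, from -1.31 to -0.94 in SN-011 against PBS and from 1.82 to 2.19 in SN-011 against WT. Fits without 1 SN-011 library kept both groups of PBS against WT whole, and Ifit1 was at 3.12 to 3.13 in them. All alternatives reuse the same counts, so the 228 values are not separate checks. The number of all genes called was less stable, at 313 and 153 to 774 in PBS against WT, 0 and 0 to 519 in SN-011 against PBS, and 213 and 38 to 816 in SN-011 against WT, with 707, 127 and 607 without a filter and 726, 183 and 816 by DESeq2; the cause was not tested.

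With the replicate block, 4, 0 and 4 of the Ifit genes were called in the 3 comparisons, and 312, 0 and 231 of all genes. The replicate numbers were not taken to pair the libraries, since the labels do not tie them to a shared litter or day and not every correlation was above 0.1 in any pair of groups. Correlations of same-numbered deviations ran from -0.008 to 0.13 for WT and PBS, -0.29 to 0.24 for WT and SN-011 and 0.098 to 0.24 for PBS and SN-011. All 6 PBS and SN-011 libraries correlated best with their own number, compared with 4 and 1 of 6 in the other pairs of groups, so a pairing of the Trex1-/- groups is not settled by these values. Depth limits the statements on Ifit1bl1, Ifit1bl2 and the interferon ligands, and unique placement those on the ligands.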
